A study of Mus musculus with 12 samples.

Results

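Myc and 37 genes of ribosome production in the nucleolus and of polyamine synthesis were followed in CD8+ T cells, the killer cells of the adaptive immune system. The 38 members were chosen by symbol, as a list of Myc, 2 polyamine enzymes and factors of the nucleolus, and their rows were taken from the 55487 genes of the count table. This list and the lists of other genes below were chosen with earlier results of these data known. Their counts against all genes are therefore descriptions. All 38 were found, and all 38 passed the filter on low counts that left 15897 genes for testing. The cells came from splenocytes of C57BL/6 mice, and their RNA was sequenced in bulk, in 3 libraries for each of 4 treatments: IL-12 80%TCM (IL-12 plus 80%TCM), IL-12, IL-2 80%TCM (IL-2 plus 80%TCM) and IL-2. IL-12 drives interferon gamma through STAT4, and IL-2 is a growth factor of T cells. No group lacked a cytokine. TCM is not spelled out in the labels, while the series title refers to tumor-like conditions, and the sources used here give no age, sex, cytokine dose or hours of culture.

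The MYC protein is a transcription factor that pairs with MAX and binds the sequence CACGTG, the E-box, and close variants of it. Its best known targets are the genes of ribosome production: RNA polymerase I and its partners copy the ribosomal RNA genes, small nucleolar ribonucleoproteins modify and cut the transcript, and further factors assemble the small and large ribosomal subunits. T cells raise MYC and enlarge their nucleoli when they leave rest, as ribosomes are needed for growth and division.

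Start sites of 31 members could be matched to promoter sequences of RefSeq (build GRCm38.p6), each running from 250 bases before the start to 50 after it; Npm1, Bop1, Rrs1, Myc, Fbl, Rrp12 and Srm are named only. CACGTG, which reads the same on both strands, lay in the window of 6 of the 31 members (19.35%), against 8.093% of all 27025 genes with a window and 11.49% of the 10291 among the genes tested. The related hexamer CACGCG, with CGCGTG on the other strand, lay in 11 of the 31 members (35.48%), against 10.49% and 19.32%. These shares describe letters in a window and no binding was measured. The 6 E-boxes are shown with their flanks, as 30 bases 5′ to 3′ in the direction of the gene with CACGTG in capitals, since this is the sequence that MYC with MAX is known to bind. They lie at chr11:72441347-72441376 (plus strand, Mybbp1a), chr6:125131811-125131840 (plus, Nop2), chr11:3963965-3963994 (plus, Pes1), chr11:74898092-74898121 (plus, Tsr1), chr10:88826765-88826794 (minus, Utp20) and chr17:71616220-71616249 (plus, Wdr43).
Mybbp1a: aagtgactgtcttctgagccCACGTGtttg
Nop2: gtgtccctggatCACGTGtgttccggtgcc
Pes1: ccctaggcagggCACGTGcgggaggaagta
Tsr1: tcacttggtgcaCACGTGgactgcagaatg
Utp20: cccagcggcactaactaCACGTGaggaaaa
Wdr43: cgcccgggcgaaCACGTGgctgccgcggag
Only the site of Nop2 lies before the start, with its first base at -60; the others begin at +41 (Mybbp1a), +3 (Pes1), +25 (Tsr1), +38 (Utp20) and +18 (Wdr43).

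Odc1 and Mybbp1a carry the related hexamer at 2 places each before the start, and the 250 bases upstream are given for both, because these genes stand out in the comparisons that follow. The windows are chr12:17544623-17544872 for Odc1 and chr11:72441077-72441326 for Mybbp1a, both on the plus strand, with CACGCG and CGCGTG in capitals.
Odc1: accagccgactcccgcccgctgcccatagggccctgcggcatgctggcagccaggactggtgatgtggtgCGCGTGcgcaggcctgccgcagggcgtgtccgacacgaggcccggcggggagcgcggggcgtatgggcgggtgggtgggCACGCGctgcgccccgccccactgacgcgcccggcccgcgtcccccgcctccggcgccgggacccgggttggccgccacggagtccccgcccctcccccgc
Mybbp1a: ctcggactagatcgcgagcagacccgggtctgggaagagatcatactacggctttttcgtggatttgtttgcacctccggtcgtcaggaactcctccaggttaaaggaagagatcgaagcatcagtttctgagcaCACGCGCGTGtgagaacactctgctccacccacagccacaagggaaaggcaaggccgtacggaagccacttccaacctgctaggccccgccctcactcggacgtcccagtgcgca
In Odc1 the hexamers begin at -180 and -101. In Mybbp1a they begin at -115 and -111 and overlap, so that the pair forms a run of capitals that reads the same on both strands.

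The unit of a level is counts per 1000000 (CPM), on scaled library sizes. Libraries held 19500568 to 26007717 counts on genes, except replicates 1 and 2 of IL-12 with 49638920 and 42349121, which carry less counting error. The labels do not say whether replicates came from separate animals or cultures, so each p-value speaks of the spread among these libraries alone, and that spread may be technical. In bulk RNA, fewer cells of a type and less RNA per cell cannot be told apart. Every library carried the CD8 T cell markers, with Cd8a at 813 to 1365 CPM, and Cd4 was at most 4.55 CPM. B cell markers summed to 69.1 to 93.0 CPM in the 6 IL-12 libraries and to 307 to 792 CPM in the 6 IL-2 libraries, nearly all of it Ighm, while Ms4a1 was at most 0.319 CPM and Pax5 at most 0.266 CPM. Platelet markers summed to 28.7 to 35.5 CPM in IL-12 80%TCM against 62.6 to 74.0 CPM in IL-12, and to 49.0 to 61.3 CPM in IL-2 80%TCM against 114 to 136 CPM in IL-2. Their part in the results was not tested.

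Replicate 3 of IL-2 80%TCM and replicate 3 of IL-2 differed from their group mates. Genes of glycolysis and the response to low oxygen summed to 26219 and 23206 CPM in them, against 8590 and 8864 CPM in the other IL-2 80%TCM libraries and 8240 and 8433 CPM in the other IL-2 libraries. The members moved with this split. Of the 38, 29 had their lowest IL-2 80%TCM level in replicate 3, and 36 had their lowest IL-2 level in replicate 3. In replicate 3 of IL-2 the median member lay 0.36 log2 units below the mean of its group mates. Myc went the other way and was highest in replicate 3 of both groups. Counts over the members in comparisons with the IL-2 groups are therefore given with and without these 2 libraries, and each member whose call differs without them is named.

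**Figure D1:**
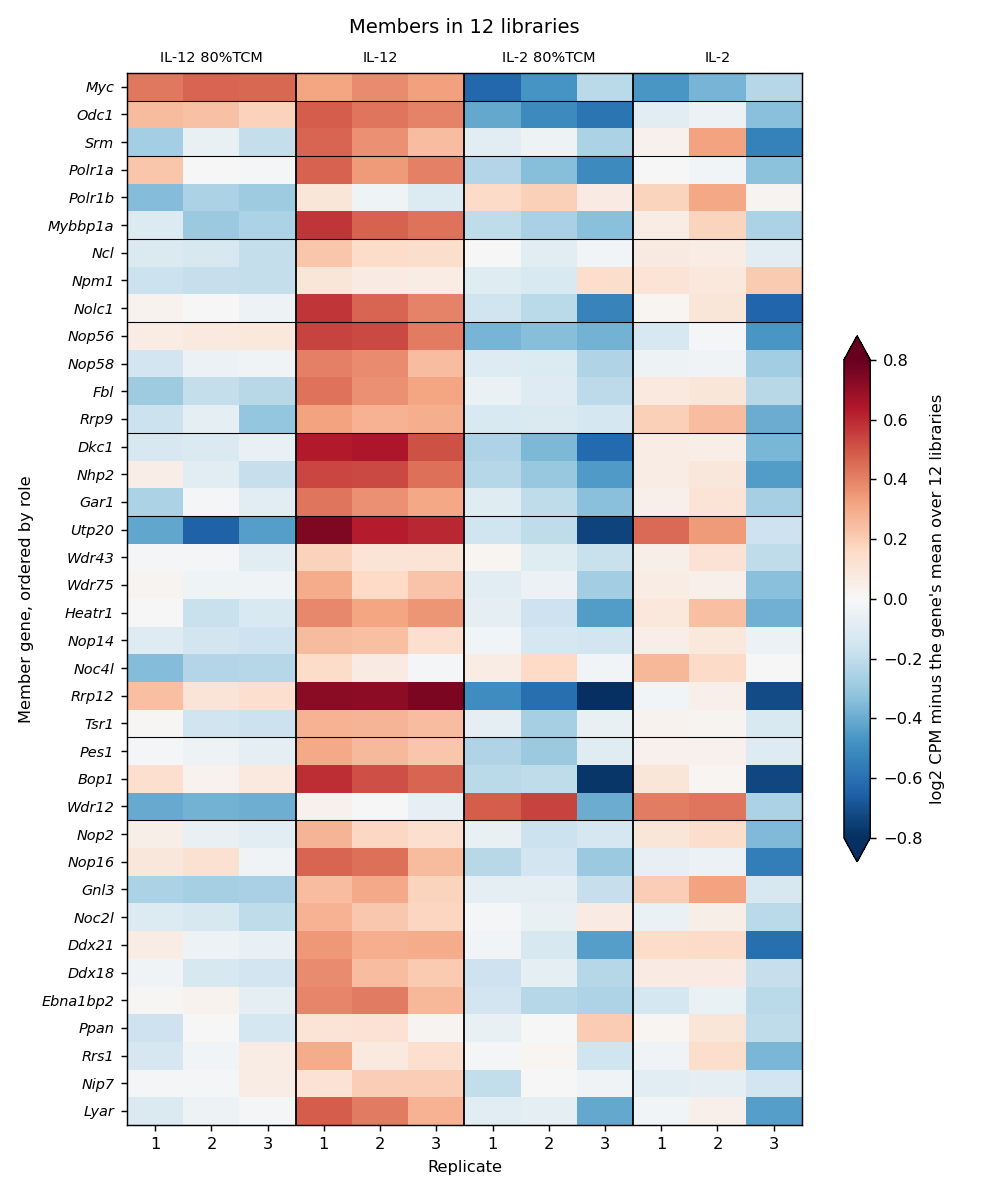
Heat map of the 38 members (rows, ordered by role) in 12 libraries (columns, 4 groups of 3 replicates), as log2 CPM minus the mean of the gene over all libraries, with colours saturating at 0.8 on either side. The 3 IL-12 columns are red in most rows, replicate 3 of both IL-2 groups is blue in most rows, and Myc in the top row is high in all 6 IL-12 libraries.

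Within IL-12, most nucleolar genes fell with TCM, and Myc did not. Of the 38 members, 28 fell with TCM and 0 rose, at an adjusted p under 0.05 (edgeR's quasi-likelihood test, Benjamini-Hochberg over 15897 genes), against 14.2% of all genes that fell and 14.8% that rose. DESeq2 called 28 members lower, against 2298 of 15990 genes, and 0 higher, against 2207 genes. At an unadjusted p under 0.05 33 members were lower and 0 higher. The share of all genes was not counted at that threshold, here and in the comparisons below. The largest fall was that of Utp20, with a log2 fold change of -1.16, followed by Mybbp1a (-0.71), Dkc1 (-0.70) and Fbl (-0.60). The median log2 fold change was -0.37 over the members and 0.01 over all genes tested. Without replicate 3 of both IL-2 groups, 37 members fell, against 22.9% of all genes. The members added were Bop1, Ddx21, Nip7, Nop2, Ppan, Rrs1, Wdr12, Wdr43 and Wdr75. Those 2 libraries enter this comparison through the filter, the scaling and the shared estimate of spread. Leaving out a single IL-12 or IL-12 80%TCM library ended the call of Heatr1, Lyar, Nolc1, Nop16, Odc1, Polr1a, Polr1b, Srm, Rrp12 or Rrp9 in at least 1 case each, and of no other member.

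The IL-12 80%TCM libraries lay below all IL-12 libraries for 37 members, against 25.3% of all genes, and above them for Myc alone, against 26.9% of all genes. Summed over all 38 members, levels were 5358 to 5532 CPM in IL-12 80%TCM and 6775 to 7192 CPM in IL-12. The sum was also lower without its 2 most abundant members, Ncl and Npm1, at 3176 to 3275 CPM in IL-12 80%TCM and 4102 to 4405 CPM in IL-12.

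Within IL-2, fewer members passed the test for a change with TCM, and their number rested on the handling of replicate 3. The members Odc1, Pes1 and Utp20 fell, 3 of 38, a share near the 7.82% of all genes, and 0 rose, against 6.73% of all genes. DESeq2 called 6 members lower, against 1307 of 15390 genes, and 0 higher, against 1186 genes. At an unadjusted p under 0.05 10 members were lower and 0 higher, with the share of all genes not counted. The log2 fold change was below 0 for 33 members, with a median of -0.12 against 0.00 over all genes. For 37 of 38 members the groups overlapped; for Odc1 the IL-2 80%TCM libraries lay below the IL-2 libraries, as they did for 14.3% of all genes. Summed levels were 5229 to 5409 CPM in IL-2 80%TCM and 5230 to 6124 CPM in IL-2.

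The count of members that fell within IL-2 changed with the fit. In the IL-2 groups the replicate 3 libraries deviated together, while replicates 1 and 2 correlated as well crosswise as by equal number. A block for the replicate number in those groups gave 13 members that fell, while 14% of all genes did. The 13 were Odc1, Pes1, Utp20, Nhp2, Bop1, Nop56, Dkc1, Rrp12, Mybbp1a, Gnl3, Polr1a, Heatr1 and Npm1. Without replicate 3 of both groups 22 members fell, against 12.4% of all genes, and the median log2 fold change of the members was -0.20. Beside Odc1, Pes1 and Utp20 these were Bop1, Ddx18, Ddx21, Dkc1, Fbl, Gar1, Gnl3, Heatr1, Mybbp1a, Nhp2, Nolc1, Nop2, Nop56, Npm1, Polr1a, Rrp12, Rrp9, Srm and Tsr1. Leaving out replicate 3 of IL-2 alone gave 20, leaving out replicate 1 or replicate 2 of IL-2 gave 1, and a fit to the 2 IL-2 groups alone gave 0.

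**Figure D2:**
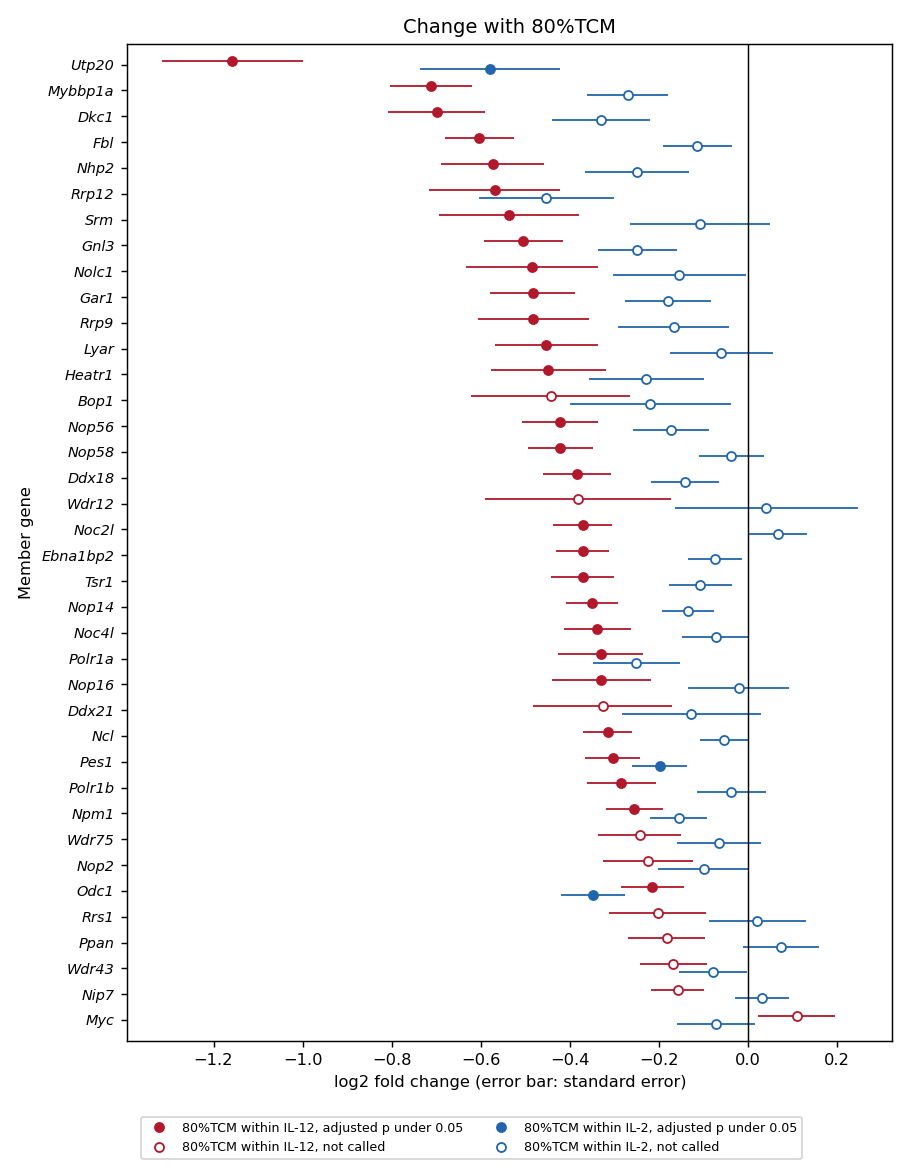
Log2 fold changes with 80%TCM for the 38 members (rows, ordered by the change within IL-12), within IL-12 (red) and within IL-2 (blue), with standard errors; filled points have an adjusted p under 0.05. Nearly all points lie left of 0, the red ones farther than the blue ones for most members, with Utp20 at the far end and Myc right of 0 within IL-12.

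Without TCM, IL-12 cells held more transcript of most members than IL-2 cells. Of 38 members 26 were higher in IL-12 and 0 lower, against 22.1% of all genes that were higher and 23% that were lower. DESeq2 called 27 members higher, against 3511 of 18399 genes, and 0 lower, against 3304 genes. At an unadjusted p under 0.05 29 members were higher and 1 lower, with the share of all genes not counted. Rrp12 had the largest difference (0.92), followed by Myc (0.69), Nop56 (0.69), Bop1 (0.68) and Dkc1 (0.67). The IL-12 libraries lay above all IL-2 libraries for 28 members, against 28.4% of all genes. The median log2 fold change was 0.36 over the members and -0.01 over all genes. Without replicate 3 of both IL-2 groups the members' median was 0.23, with 27 higher, against 26.3% of all genes, and 3 lower, against 26% of all genes, the last being Wdr12, Polr1b and Noc4l. Ncl then missed the threshold, and Srm (0.18) and Ddx21 (0.16) were called higher. The differences of Utp20 (0.26), Heatr1 (0.17) and Wdr75 (0.17) kept their calls there at a size over 1.5 times smaller. With the block in the IL-2 groups 26 were higher, Srm and Ddx21 among them and Ncl and Nop14 not, against 22.6% of all genes, and Wdr12 and Polr1b were lower, against 21.5%. Leaving out 1 library ended the call of Heatr1, Ncl, Nop14, Utp20 or Wdr75 in at least 1 case each, and all 5 were lost without IL-12 replicate 1 and again without IL-2 replicate 3.

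With TCM in both arms, fewer members passed the test. IL-12 80%TCM cells had higher levels of 8 of 38 members than IL-2 80%TCM cells, a share near the 19.5% of all genes. The 8 were Myc, Odc1, Rrp12, Nop56, Polr1a, Dkc1, Ebna1bp2 and Pes1. IL-12 80%TCM cells had lower levels of 3 members, Polr1b, Noc4l and Wdr12, against 19.4% of all genes. The groups did not overlap for 13 members that lay above, against 25.1% of all genes, and 6 that lay below, against 24.9%. Member sums overlapped, at 5358 to 5532 CPM in IL-12 80%TCM and 5229 to 5409 CPM in IL-2 80%TCM, and the median log2 fold change was 0.08. With the block in the IL-2 groups 7 members were lower, the others being Utp20, Ncl, Gnl3 and Fbl, against 18.4% of all genes, and 8 were higher, Bop1 among them and Pes1 not, against 20.6%. Without replicate 3 of both IL-2 groups 12 were higher, against 23.5% of all genes, with Bop1, Nhp2, Nolc1 and Nop16 added. There 8 were lower, against 24.5% of all genes, with Utp20, Ncl, Gnl3, Fbl and Noc2l added, and the difference of Dkc1 was 0.18. The calls of Dkc1 and Pes1 were each lost in 10 of the 12 fits that left out a single library; those of Ebna1bp2 and Wdr12 were lost in some.

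Cytokine comparisons depend on the scaling of libraries more than those of TCM do. Over all genes, 3511 were higher and 3660 lower in IL-12 than in IL-2, and 2593 and 4532 with upper-quartile scaling; with TCM in both arms 3106 were higher and 3086 lower, and 2331 and 3971 with upper-quartile scaling. With library totals and no scaling factor the median log2 fold change of all genes was -0.12 in both comparisons, and 5 members were higher and 9 lower with TCM.

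**Figure D3:**
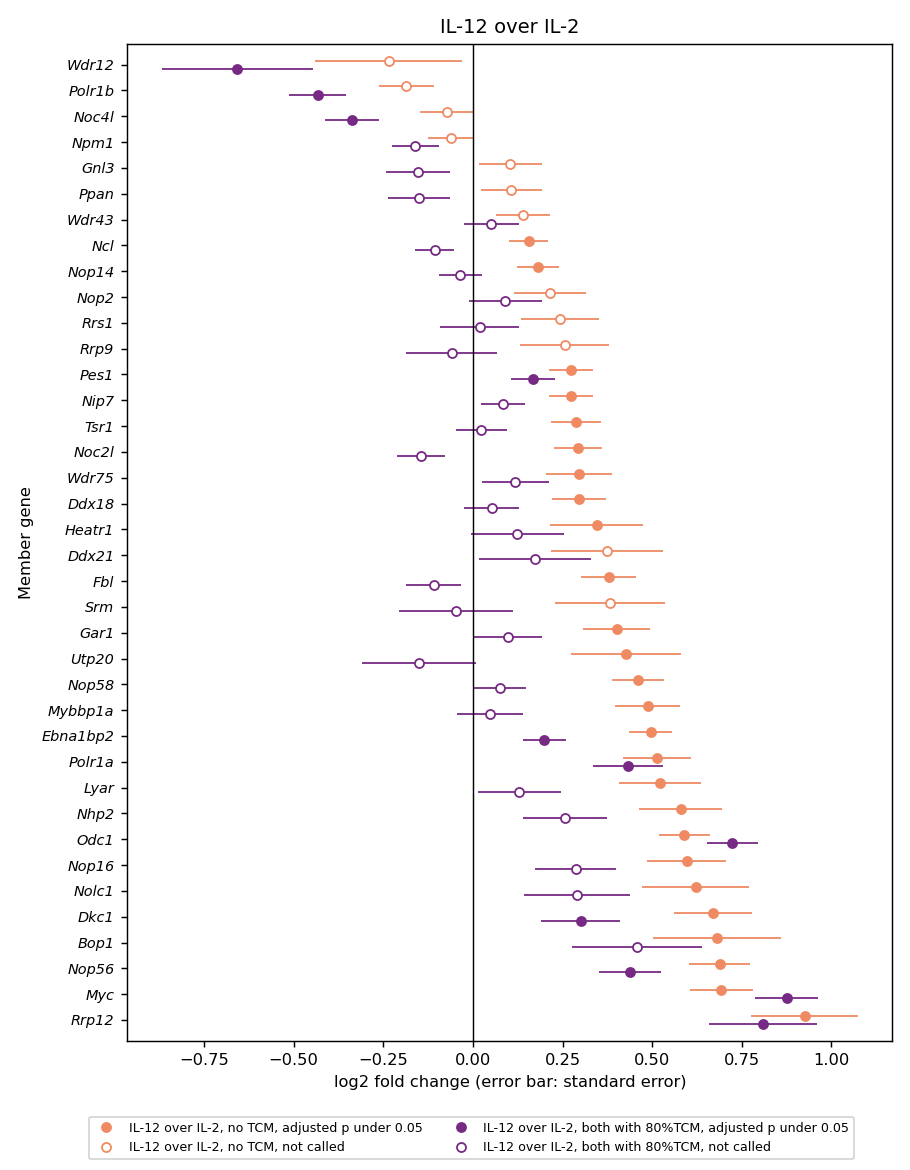
Log2 fold changes of IL-12 over IL-2 for the 38 members (rows, ordered by the difference without TCM), without TCM (orange) and with 80%TCM in both arms (purple), with standard errors; filled points have an adjusted p under 0.05. Most orange points lie right of 0, most purple points nearer to it, and Myc and Odc1 are farther right with TCM.

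The order of the members was alike in comparisons that share no library. Over the 38 members, Spearman's rho between the change with TCM within IL-12 and within IL-2 was 0.56, and 0.56 over all 15897 genes. Between IL-12 over IL-2 without and with TCM it was 0.84 over the members and 0.78 over all genes. These are descriptions across genes, which share scaling and cells and are not independent replicates.

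Myc differed between the cytokines, and its changes with TCM did not pass the test. It was at 153, 157 and 156 CPM in IL-12 80%TCM, against 142, 148 and 143 CPM in IL-12. It was at 73.8, 82.2 and 98.2 CPM in IL-2 80%TCM, against 82.6, 87.8 and 97.2 CPM in IL-2. All 6 IL-12 libraries lay above all 6 IL-2 libraries, the IL-12 groups did not overlap, and the IL-2 groups did. IL-12 over IL-2 gave a log2 fold change of 0.69 ± 0.09, adjusted p = 3.3e-05 without TCM (value ± standard error, here and later) and of 0.87 ± 0.09, adjusted p = 3.9e-06 with TCM. The change with TCM was 0.11 ± 0.09, adjusted p = 0.38 within IL-12 and -0.07 ± 0.09, adjusted p = 0.63 within IL-2. A fit to the 2 IL-12 groups alone called Myc higher with TCM at adjusted p = 0.027, at a log2 fold change of 0.11. Per kilobase of annotated exon, Myc stood at 57.2 in IL-12 80%TCM, 53.1 in IL-12, 31.2 in IL-2 80%TCM and 32.8 CPM in IL-2; the IL-2 groups, neighbours in this order, did not differ beyond their spread.

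Both polyamine enzymes among the members fell with TCM within IL-12, against 14.2% of all genes. Odc1, ornithine decarboxylase and the first step of polyamine synthesis, was at 202, 199.7 and 193 CPM in IL-12 80%TCM, against 238, 228 and 224 CPM in IL-12. It was at 128, 119 and 113 CPM in IL-2 80%TCM, against 159, 165 and 135 CPM in IL-2. No pair of groups overlapped, so that the order from high to low was IL-12, IL-12 80%TCM, IL-2 and IL-2 80%TCM. Odc1 fell with TCM within IL-12 (-0.21 ± 0.07, adjusted p = 0.037) and within IL-2 (-0.35 ± 0.07, adjusted p = 0.0065), and it was higher in IL-12 without TCM (0.59 ± 0.07, adjusted p = 2.2e-05) and with it (0.72 ± 0.07, adjusted p = 3.5e-06). Srm, spermidine synthase, was at 26.8, 31.0 and 28.4 CPM in IL-12 80%TCM, against 44.7, 41.7 and 38.4 CPM in IL-12, and these did not overlap. It was at 30.5, 31.4 and 27.2 CPM in IL-2 80%TCM, against 33.1, 40.4 and 22.2 CPM in IL-2, which overlapped. Srm fell with TCM within IL-12 (-0.54 ± 0.16, adjusted p = 0.021); the difference between the cytokines without TCM was 0.38 ± 0.15, adjusted p = 0.059. Srm was also called once replicate 3 of IL-2 and of IL-2 80%TCM was left out, as higher in IL-12 without TCM (0.18 ± 0.07, adjusted p = 0.047) and as lower with TCM within IL-2 (-0.25 ± 0.08, adjusted p = 0.029).

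All 3 genes of RNA polymerase I fell with TCM within IL-12, against 14.2% of all genes, but the 3 differed in their response to the cytokine. Mybbp1a, a nucleolar MYB-binding protein that takes part in ribosomal RNA transcription, was at 197, 173 and 179 CPM in IL-12 80%TCM, against 316, 296 and 287 CPM in IL-12. It was at 185, 178 and 169 CPM in IL-2 80%TCM, against 222, 241 and 178 CPM in IL-2. The IL-12 groups lay far apart, and in the IL-2 groups replicate 3 of IL-2 came within the range of the TCM libraries. Mybbp1a fell with TCM within IL-12 (-0.71 ± 0.09, adjusted p = 0.00015), while the change within IL-2 was -0.27 ± 0.09, adjusted p = 0.065. IL-12 over IL-2 gave 0.49 ± 0.09, adjusted p = 0.00082 without TCM and 0.05 ± 0.09, adjusted p = 0.72 with TCM.

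Polr1a, the largest subunit of RNA polymerase I, was at 82.2, 70.6 and 69.7 CPM in IL-12 80%TCM, against 97.6, 89.1 and 93.2 CPM in IL-12. It was at 60.0, 55.6 and 49.4 CPM in IL-2 80%TCM, against 70.6, 69.4 and 56.1 CPM in IL-2. Polr1a fell with TCM within IL-12 (-0.33 ± 0.10, adjusted p = 0.021) and was higher in IL-12 without TCM (0.51 ± 0.10, adjusted p = 0.00081) and with it (0.43 ± 0.10, adjusted p = 0.0033). Polr1b, the second largest subunit, was at 31.0, 33.1 and 32.4 CPM in IL-12 80%TCM, against 42.3, 38.5 and 36.6 CPM in IL-12. It was at 43.9, 45.1 and 41.3 CPM in IL-2 80%TCM, against 44.7, 48.9 and 40.1 CPM in IL-2. The 3 IL-12 80%TCM libraries were its lowest. Polr1b fell with TCM within IL-12 (-0.28 ± 0.08, adjusted p = 0.016) and, against most members, was lower in IL-12 80%TCM than in IL-2 80%TCM (-0.43 ± 0.08, adjusted p = 0.00068); without TCM the difference was -0.19 ± 0.08, adjusted p = 0.063.

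All 3 abundant phosphoproteins of the nucleolus fell with TCM within IL-12, against 14.2% of all genes. Per kilobase of annotated exon, Npm1 (402 to 501 CPM as group means) and Ncl (113 to 141 CPM) were the most abundant members in every group. Ncl, nucleolin, was at 1177, 1166 and 1116 CPM in IL-12 80%TCM, against 1487, 1410.2 and 1406 CPM in IL-12. It was at 1274, 1196 and 1253 CPM in IL-2 80%TCM, against 1339, 1326 and 1197 CPM in IL-2. Ncl fell with TCM within IL-12 (-0.32 ± 0.05, adjusted p = 0.001) and was higher in IL-12 than in IL-2 without TCM (0.16 ± 0.05, adjusted p = 0.032). The cytokine call was lost with both replicate 3 libraries left out (0.10 ± 0.05, adjusted p = 0.071), with the block in the IL-2 groups (0.11 ± 0.06, adjusted p = 0.14), with upper-quartile scaling, with library totals and in the fit to the compared groups alone.

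Npm1, nucleophosmin, was at 1080.1, 1068 and 1066 CPM in IL-12 80%TCM, against 1300.1, 1269 and 1266 CPM in IL-12. It was at 1138, 1116 and 1338 CPM in IL-2 80%TCM, against 1309, 1291 and 1402 CPM in IL-2. Unlike most members it was highest in replicate 3 of both IL-2 groups; its processed copies in the genome may share reads with it, so its level is uncertain. Npm1 fell with TCM within IL-12 (-0.26 ± 0.06, adjusted p = 0.01), and IL-12 over IL-2 without TCM gave -0.06 ± 0.06, adjusted p = 0.46. Nolc1, which escorts small nucleolar ribonucleoproteins, was at 141, 138 and 134 CPM in IL-12 80%TCM, against 205, 190.5 and 182 CPM in IL-12. It was at 124, 119 and 95.2 CPM in IL-2 80%TCM, against 139.8, 147 and 88.8 CPM in IL-2, with replicate 3 lowest in both. Nolc1 fell with TCM within IL-12 (-0.48 ± 0.15, adjusted p = 0.026) and was higher in IL-12 without TCM (0.62 ± 0.15, adjusted p = 0.0041).

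**Figure D4:**
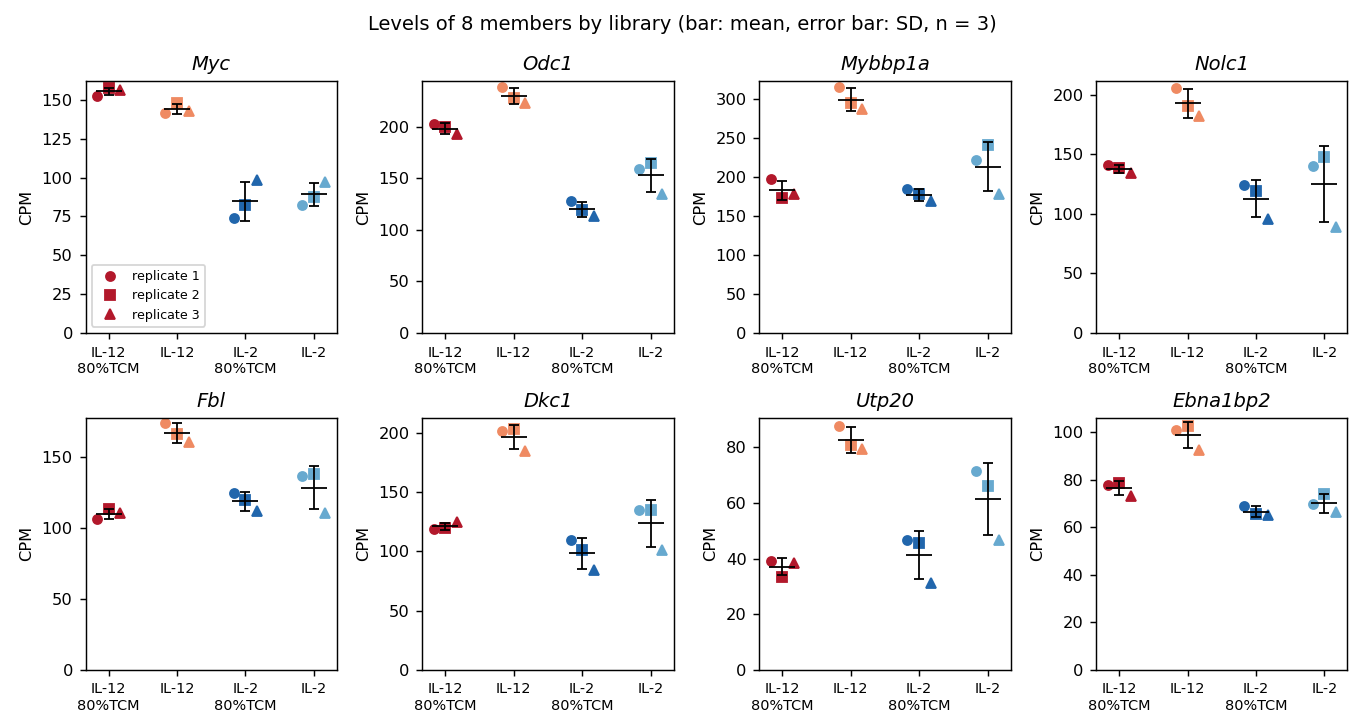
CPM (vertical axes, from 0) of 8 members in the 4 groups, with a symbol for each replicate, a bar at the mean and an error bar of 1 SD (n = 3). Myc is high in both IL-12 groups, the other 7 genes are lower in IL-12 80%TCM than in IL-12, and replicate 3 (triangles) is low in IL-2 for all but Myc.

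Proteins of the small nucleolar ribonucleoproteins, which guide methylation (box C/D) and pseudouridine formation (box H/ACA) of ribosomal RNA, fell together with TCM within IL-12. All 4 box C/D and U3 members and all 3 box H/ACA members passed the test, against 14.2% of all genes that fell. Fbl, the methyltransferase fibrillarin, was at 106, 113 and 111 CPM in IL-12 80%TCM, against 175, 166 and 161 CPM in IL-12. It was at 125, 120.2 and 112 CPM in IL-2 80%TCM, against 137, 138 and 111 CPM in IL-2. The IL-12 groups were clearly apart and the IL-2 groups overlapped. Fbl fell with TCM within IL-12 (-0.60 ± 0.08, adjusted p = 0.00014), with -0.11 ± 0.08, adjusted p = 0.36 within IL-2. It was higher in IL-12 than in IL-2 without TCM (0.38 ± 0.08, adjusted p = 0.0014).

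Nop56, a core box C/D protein, was at 218, 221 and 222 CPM in IL-12 80%TCM, against 305, 302 and 279 CPM in IL-12. It was at 162, 165 and 161 CPM in IL-2 80%TCM, against 191, 207 and 152 CPM in IL-2. Even with TCM, IL-12 libraries were all above IL-2 libraries. Nop56 fell with TCM within IL-12 (-0.42 ± 0.09, adjusted p = 0.0029) and was higher in IL-12 without TCM (0.69 ± 0.09, adjusted p = 3e-05) and with it (0.44 ± 0.09, adjusted p = 0.0012). Its partner Nop58 fell with TCM within IL-12 (-0.42 ± 0.07, adjusted p = 0.001), and so did Rrp9, a U3 protein (-0.48 ± 0.13, adjusted p = 0.012).

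Dkc1, dyskerin and the pseudouridine synthase of box H/ACA particles, was at 119, 120.2 and 125 CPM in IL-12 80%TCM, against 202, 203 and 185 CPM in IL-12. It was at 109.7, 101 and 84.3 CPM in IL-2 80%TCM, against 135, 135 and 101 CPM in IL-2. Its IL-12 libraries lay above all 9 others. Dkc1 fell with TCM within IL-12 (-0.70 ± 0.11, adjusted p = 0.00053), while the change within IL-2 was -0.33 ± 0.11, adjusted p = 0.06. It was higher in IL-12 without TCM (0.67 ± 0.11, adjusted p = 0.00027) and with it (0.30 ± 0.11, adjusted p = 0.044). Nhp2 and Gar1, the other core proteins among the members, fell within IL-12 by 0.57 and 0.48 on the log2 scale, with adjusted p = 0.0029 and 0.0025.

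Among 8 factors of small subunit processing, 6 fell with TCM within IL-12, against 14.2% of all genes. Also 6 were higher in IL-12 than in IL-2 without TCM, against 22.1% of all genes. Utp20, a large scaffold protein of the small subunit precursor, was at 39.1, 33.5 and 38.6 CPM in IL-12 80%TCM, against 87.8, 80.7 and 79.4 CPM in IL-12. It was at 46.8, 45.4 and 31.3 CPM in IL-2 80%TCM, against 71.5, 66.2 and 46.7 CPM in IL-2. All IL-12 libraries lay above the 9 others, and replicate 3 of IL-2 lay within the range of the IL-2 80%TCM libraries. Utp20 fell with TCM within IL-12 (-1.16 ± 0.16, adjusted p = 0.00022) and within IL-2 (-0.58 ± 0.16, adjusted p = 0.026), the largest change of a member in each. It was higher in IL-12 without TCM (0.43 ± 0.15, adjusted p = 0.036), and the difference with TCM was -0.15 ± 0.16, adjusted p = 0.49.

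Rrp12, a factor for export of both subunits in yeast, was at 68.7, 62.5 and 63.8 CPM in IL-12 80%TCM, against 95.8, 95.5 and 97.9 CPM in IL-12. It was at 41.2, 38.2 and 31.9 CPM in IL-2 80%TCM, against 57.1, 59.7 and 35.3 CPM in IL-2. All IL-12 libraries lay above all IL-2 libraries. Rrp12 was higher in IL-12 without TCM (0.92 ± 0.15, adjusted p = 0.00025) and with it (0.81 ± 0.15, adjusted p = 0.00089), and fell with TCM within IL-12 (-0.57 ± 0.15, adjusted p = 0.012).

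Noc4l, the counterpart of a yeast factor for small subunit export, was at 36.6, 39.6 and 39.7 CPM in IL-12 80%TCM, against 51.5, 48.7 and 46.1 CPM in IL-12. It was at 48.4, 52.1 and 45.9 CPM in IL-2 80%TCM, against 55.8, 51.7 and 46.5 CPM in IL-2. The IL-12 80%TCM libraries were its lowest. Noc4l fell with TCM within IL-12 (-0.34 ± 0.08, adjusted p = 0.0051) and was lower in IL-12 80%TCM than in IL-2 80%TCM (-0.34 ± 0.08, adjusted p = 0.0033). Heatr1, Nop14 and Tsr1 also fell within IL-12, at -0.45, -0.35 and -0.37, while Wdr75 (-0.24 ± 0.09, adjusted p = 0.066) and Wdr43 (-0.17 ± 0.08, adjusted p = 0.12) did not pass the test. Without replicate 3 of both IL-2 groups Wdr75 and Wdr43 were called lower with TCM within IL-12.

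The 3 proteins of the PeBoW complex, which is needed for the large subunit, did not move as a unit between the cytokines. With TCM in both arms Pes1 was called higher in IL-12 and Wdr12 lower. Within IL-12, all 3 had log2 fold changes with TCM below 0, from -0.44 to -0.30, and Pes1 alone was called. Pes1 was at 85.2, 83.4 and 81.1 CPM in IL-12 80%TCM, against 106, 102 and 99.9 CPM in IL-12. It was at 72.6, 69.6 and 80.2 CPM in IL-2 80%TCM, against 87.8, 87.6 and 79.7 CPM in IL-2. Pes1 fell with TCM within IL-12 (-0.30 ± 0.06, adjusted p = 0.0028) and within IL-2 (-0.20 ± 0.06, adjusted p = 0.047). It was higher in IL-12 without TCM (0.27 ± 0.06, adjusted p = 0.0028) and with it (0.17 ± 0.06, adjusted p = 0.047). The difference with TCM was 0.16 ± 0.07, adjusted p = 0.084 with the block in the IL-2 groups, and 0.21 ± 0.05, adjusted p = 0.00081 without replicate 3 of both. The change of Pes1 within IL-2 lost its call in the fit to the IL-2 groups alone (-0.20 ± 0.08, adjusted p = 0.18) and under each other scaling. Bop1 was higher in IL-12 without TCM (0.68 ± 0.18, adjusted p = 0.0073), and its change with TCM within IL-12 was -0.44 ± 0.18, adjusted p = 0.079.

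Wdr12, the third subunit, was at 38.4, 39.1 and 38.8 CPM in IL-12 80%TCM, against 51.9, 50.8 and 48.6 CPM in IL-12. It was at 71.1, 73.9 and 38.5 CPM in IL-2 80%TCM, against 67.4, 68.3 and 42.6 CPM in IL-2. The IL-12 groups were narrow and apart, while in both IL-2 groups replicate 3 was far below the other libraries. Wdr12 was lower in IL-12 80%TCM than in IL-2 80%TCM (-0.66 ± 0.21, adjusted p = 0.025), and -0.92 ± 0.05 without replicate 3 of both IL-2 groups. Its change with TCM within IL-12 was -0.38 ± 0.21, adjusted p = 0.19, with the spread of the IL-2 libraries in the shared estimate, and without those 2 libraries Wdr12 fell there by 0.39 on the log2 scale.

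Of the 11 factors of large subunit assembly and other nucleolar proteins, 6 fell with TCM within IL-12, against 14.2% of all genes. Also 6 were higher in IL-12 than in IL-2 without TCM, against 22.1% of all genes. Ebna1bp2, the counterpart of a yeast large subunit factor, was at 77.6, 78.5 and 73.1 CPM in IL-12 80%TCM, against 101, 103 and 92.6 CPM in IL-12. It was at 69.1, 65.7 and 65.0 CPM in IL-2 80%TCM, against 70.0, 74.0 and 66.2 CPM in IL-2. The IL-12 groups did not overlap, and the IL-2 groups did. Ebna1bp2 fell with TCM within IL-12 (-0.37 ± 0.06, adjusted p = 0.00066) and was higher in IL-12 without TCM (0.50 ± 0.06, adjusted p = 2.2e-05) and with it (0.20 ± 0.06, adjusted p = 0.019).

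Gnl3, nucleostemin, a GTP-binding protein of stem and dividing cells, was at 74.1, 73.5 and 73.7 CPM in IL-12 80%TCM, against 105, 109 and 100.1 CPM in IL-12. It was at 84.2, 84.1 and 77.7 CPM in IL-2 80%TCM, against 101, 110.2 and 80.8 CPM in IL-2. Gnl3 fell with TCM within IL-12 (-0.50 ± 0.09, adjusted p = 0.0012), and IL-12 over IL-2 without TCM gave 0.10 ± 0.09, adjusted p = 0.36. Noc2l, a nucleolar protein that also inhibits histone acetyltransferases, was at 89.4, 88.6 and 83.9 CPM in IL-12 80%TCM, against 117, 112 and 109 CPM in IL-12. It was at 95.6, 92.8 and 101 CPM in IL-2 80%TCM, against 93.2, 100.02 and 83.3 CPM in IL-2. The IL-12 groups were apart and the IL-2 groups overlapped. Noc2l fell with TCM within IL-12 (-0.37 ± 0.07, adjusted p = 0.0013) and was higher in IL-12 without TCM (0.29 ± 0.07, adjusted p = 0.003).

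The other members of this role followed the same pattern or did not pass the test. Lyar (-0.45), Ddx18 (-0.38) and Nop16 (-0.33) fell with TCM within IL-12 and were higher in IL-12 without TCM, at 0.52, 0.30 and 0.60. Nip7 was higher in IL-12 (0.27 ± 0.06, adjusted p = 0.0025), and its change with TCM within IL-12 was -0.16 ± 0.06, adjusted p = 0.066. Ddx21, Nop2, Rrs1 and Ppan passed neither test, with changes within IL-12 of -0.33, -0.22, -0.20 and -0.18. Without replicate 3 of both IL-2 groups Ddx21, Nop2, Rrs1, Ppan and Nip7 were called lower with TCM within IL-12.

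Whether the change with TCM differed between the cytokines was tested as the difference of the 2 changes. The difference was below 0 for 36 of 38 members, with a median of -0.26 against 0.00 over all genes, but only Fbl (-0.49 ± 0.11, adjusted p = 0.044) and Noc2l (-0.44 ± 0.09, adjusted p = 0.036) passed the test, against 0.39% of all genes that were lower and 1.19% higher, while 0 members were higher. DESeq2 called 6 members lower, against 186 of 12984 genes, and 0 higher, against 350 genes. At an unadjusted p under 0.05 16 members were lower and 0 higher, with the share of all genes not counted. With the replicate number as a block in the IL-2 groups 18 members passed, against 4.14% of all genes. Without replicate 3 of both IL-2 groups 14 were lower, against 6.24% of all genes. Beside Fbl and Noc2l these were Dkc1, Ebna1bp2, Gar1, Lyar, Mybbp1a, Ncl, Nhp2, Noc4l, Nolc1, Nop58, Utp20 and Wdr12. In that fit Myc was higher (0.22 ± 0.07, adjusted p = 0.034), against 6.96% of all genes. The count was 0 without replicate 1 of IL-2, replicate 1 or 2 of IL-2 80%TCM, or any of the 6 IL-12 libraries, and 8 without replicate 3 of IL-2 80%TCM.

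Other genes of the same pathways were counted in lists that share no symbol with the members. With TCM within IL-12, 14.2% of all genes fell and 14.8% rose. Of 44 other small subunit factors 22 (50%) fell and 0 rose, and of 50 other large subunit factors 28 (56%) fell and 3 (6%) rose. Of 12 other small nucleolar ribonucleoprotein factors 7 (58.3%) fell and 0 rose. Nol6 (-0.60 ± 0.09, adjusted p = 0.00048) and Rcl1 (-0.67 ± 0.09, adjusted p = 0.00021), both of the small subunit precursor, fell. The large subunit factors Rrp15 (-0.89 ± 0.13, adjusted p = 0.0003) and Wdr18 (-0.79 ± 0.15, adjusted p = 0.0017) fell, while Nop53 rose (0.28 ± 0.05, adjusted p = 0.0012). The RNA exosome, which trims precursors, had 5 of 13 genes (38.5%) lower and 0 higher. In IL-12 over IL-2 without TCM, 28 (63.6%), 29 (58%), 9 (75%) and 10 (76.9%) genes of these 4 lists were higher, against 22.1% of all genes. There 0, 4 (8%), 1 (8.33%) and 0 were lower, against 23% of all genes. Riok1, a kinase of late small subunit maturation, stood out at 1.54 ± 0.06, adjusted p = 3.6e-10.

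Beyond the members Polr1a and Polr1b, which fell, genes of the polymerases passed the test in smaller numbers. Of 13 other RNA polymerase I genes, 2 (15.4%) fell with TCM within IL-12, against 14.2% of all genes, and 0 rose: Ubtf, the factor that marks active ribosomal RNA genes (193 ± 2.36 CPM in IL-12 80%TCM and 269 ± 15.2 CPM in IL-12, SD, n = 3 each), and Cd3eap. Of 19 RNA polymerase III genes 5 fell and 2 rose, against 14.2% and 14.8% of all genes. In IL-12 over IL-2 without TCM, 22.1% of all genes were higher and 23% lower. There 3 of the 13 other RNA polymerase I genes were higher and 1 was lower. Of the 19 RNA polymerase III genes 3 were higher and 2 lower.

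Most known MYC targets outside the nucleolus fell with TCM within IL-12, and the MYC network itself was mixed. Of 22 such targets 18 (81.8%) fell with TCM within IL-12, against 14.2% of all genes, among them Phb (-0.55 ± 0.07) and Cdc25a (-0.32 ± 0.05). Only 1 (4.55%) rose, Ccnd2 (0.79 ± 0.13), against 14.8% of all genes. In IL-12 over IL-2 without TCM 14 (63.6%) were higher and 2 (9.09%) lower, against 22.1% and 23% of all genes. Mxd1, which pairs with MAX and represses E-box genes, was at 214 ± 1.87 CPM in IL-12 80%TCM and 140.0 ± 6.17 CPM in IL-12, and 37.2 ± 4.52 CPM in IL-2 (SD, n = 3 each). Mxd1 rose with TCM within IL-12 (0.61 ± 0.09, adjusted p = 0.00034) and was higher in IL-12 than in IL-2 (1.91 ± 0.09, adjusted p = 4.1e-09). Its relative Mxd4 went the other way between the cytokines, at 49.3 ± 3.78 CPM in IL-12 and 189 ± 18.5 CPM in IL-2 (-1.94 ± 0.07, adjusted p = 3.6e-10), and fell with TCM within IL-12 (-0.41 ± 0.07, adjusted p = 0.0016). Max, the partner of MYC, was higher in IL-12 than in IL-2 (0.49 ± 0.06, adjusted p = 2.2e-05). Over the 10 genes of this network tested, 2 (20%) rose and 3 (30%) fell with TCM within IL-12, against 14.8% and 14.2% of all genes. Without TCM 2 (20%) were higher and 4 (40%) lower in IL-12 than in IL-2, against 22.1% and 23% of all genes.

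In the rest of the polyamine pathway, Smox, the spermine oxidase, had the largest differences. It was at 146 ± 2.29 CPM in IL-12 80%TCM and 69.7 ± 2.0 CPM in IL-12, and 13.8 ± 6.86 CPM in IL-2 (SD, n = 3 each). Smox rose with TCM within IL-12 (1.07 ± 0.31, adjusted p = 0.022) and was higher in IL-12 than in IL-2 (2.34 ± 0.35, adjusted p = 0.00013). Of 10 genes tested, 2 (20%) rose and 2 (20%) fell with TCM within IL-12, against 14.8% and 14.2% of all genes. Without TCM 6 (60%) were higher and 1 (10%) lower in IL-12 than in IL-2, against 22.1% and 23% of all genes.

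Of the ribosomal proteins, the parts that these factors assemble, few passed the test for a change with TCM. Of 79 cytosolic ribosomal protein genes, 6 (7.59%) fell and 4 (5.06%) rose within IL-12, against 14.2% and 14.8% of all genes. Within IL-2, 2 (2.53%) fell and 1 (1.27%) rose, against 7.82% and 6.73% of all genes. In IL-12 over IL-2 without TCM 26 (32.9%) were higher and 0 lower, against 22.1% and 23% of all genes. Their summed level was 85531 to 90882 CPM in IL-12 80%TCM and 88337 to 90650 CPM in IL-12, which overlap. Genes of DNA replication fell with TCM under both cytokines: 35 of 36 within IL-12, where 28 of 38 members fell, and 31 of 36 within IL-2, where 3 of 38 members fell. The member count within IL-2 was 22 without replicate 3 of both IL-2 groups, against 12.4% of all genes. With the block in those groups it was 13, against 14% of all genes. The replication genes were not counted in these other fits, so the lists cannot be set against each other there. Of the 36, 27 (75%) were higher in IL-12 than in IL-2 without TCM. Of 26 mitosis genes 23 (88.5%) fell within IL-12, 19 (73.1%) fell within IL-2, and 14 (53.8%) were higher in IL-12 than in IL-2 without TCM. Over all genes 14.2% fell within IL-12, 7.82% fell within IL-2, and 22.1% were higher in IL-12 than in IL-2 without TCM. The part of cell division in the members' levels was not tested.

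**Figure D5:**
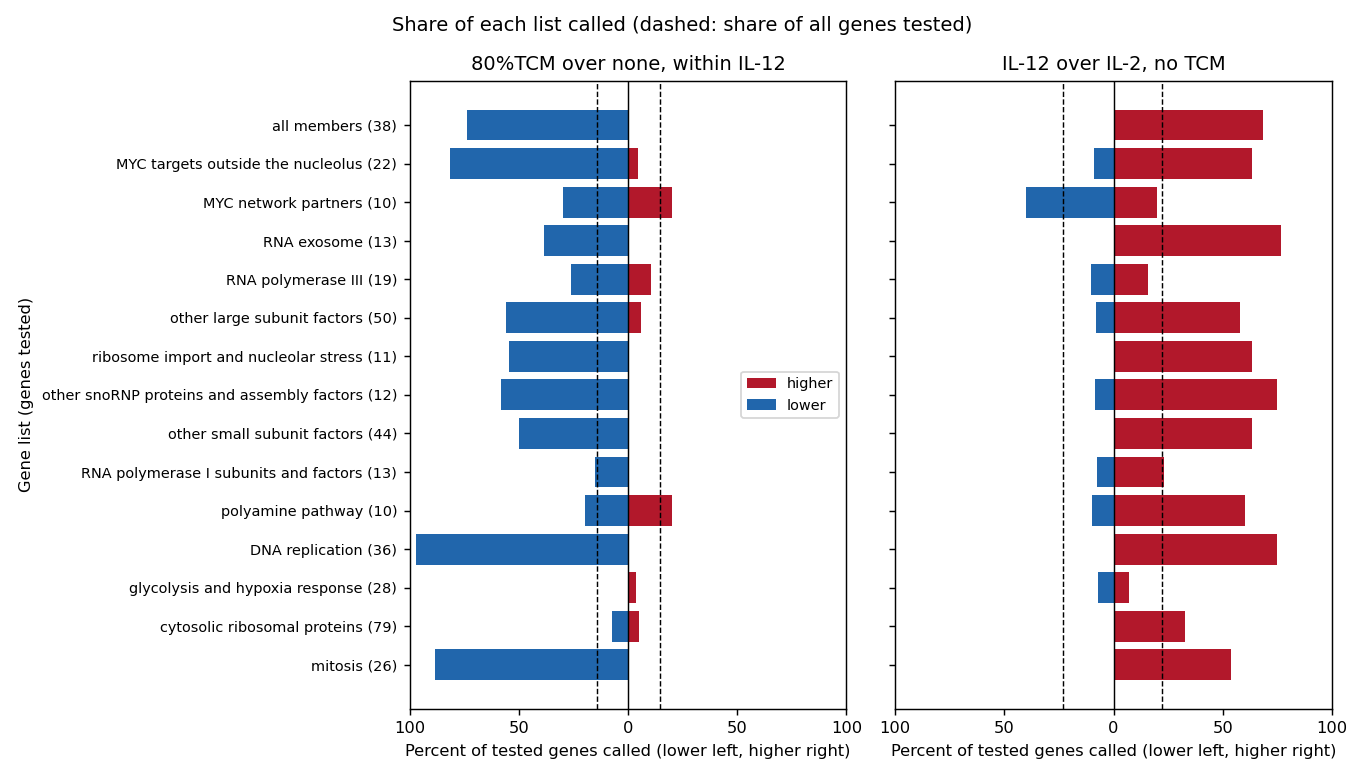
Percent of each gene list called higher (red, right) and lower (blue, left) with 80%TCM within IL-12 (left panel) and in IL-12 over IL-2 without TCM (right panel), with the number of genes tested in brackets and dashed lines at the share of all genes tested. The members and DNA replication extend far to the left in the left panel, and the RNA polymerase I genes and the ribosomal proteins stay near the dashed lines or inside them there.

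Reads near some members cannot be placed with certainty. Exons of 15 members overlap exons of a gene on the other strand, among them Mybbp1a with Spns2, Nop56 with Idh3b, Dkc1 with Mpp1, Bop1 with Mroh1, Gnl3 with Pbrm1, Wdr12 with Carf and Noc2l with Samd11. The kit keeps strand, but no source used here says whether the counting used it, so values of these genes are uncertain to that extent.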

How the data were processed

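Bulk RNA of CD8+ T cells was measured in 12 libraries, grouped by treatment from the sample labels. The authors deposited gene counts, after alignment with STAR 2.7.7a per the submitters' processing notes, which also name edgeR and a human genome build; all identifiers in the table are mouse Ensembl IDs. Per the labels, a directional NEBNext Ultra II kit was used; the extraction text there speaks of livers and bortezomib, which no sample label names. The authors also deposited, for each library, a signal per gene, equal to the count times 1 constant. Symbols were found for 55141 of 55487 identifiers, and genes without one held 0.029 to 0.053% of the counts.

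The members and lists were chosen with earlier results of these data known. After a filter on low counts (filterByExpr, at least 10 counts and 15 in total) and TMM scaling, 15897 genes were fitted in edgeR 4.0.16 (R 4.3.3, quasi-likelihood F test) to all 12 libraries, with a mean for each group, Benjamini-Hochberg adjustment over all genes tested and a threshold of 0.05. Standard errors were derived from fold changes and F statistics, and errors of levels are SD over 3 libraries. Members with full values are Myc, the smallest p of each role in 3 comparisons, members called against the majority, and up to 3 called for the difference of changes. The pathway genes named are among the smallest p per list. Of 212 pathway symbols 206 matched. The scripts were tested on simulated data.

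Alternatives were DESeq2 1.42.0, its size factors, upper-quartile scaling, no filter or a mean of 5 CPM, limma 3.58.1 on the deposited signal with 1, 0.1 or 5 added, the compared groups alone, replicate blocks, libraries left out and a threshold of 0.01; library totals as scaling were added after seeing the data. No label pairs libraries of equal replicate number, and by their residuals only replicate 3 was paired between the IL-2 groups. Same-number correlations there were 0.429, 0.399 and 0.682, and replicates 1 and 2 correlated as well crosswise (0.45 and 0.414). Between the other groups same-number correlations were -0.0891 to 0.13. Between replicates of a group, chi-square divided by its degrees of freedom was 28.5 to 45.4 where replicate 3 of IL-2 or IL-2 80%TCM took part and 2.4 to 5.51 elsewhere, so that no library was a copy of another.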

Additional observations from a re-analysis of the deposited data

Results flagged for a closer look

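The change of Fbl with TCM differed between the cytokines by -0.49 log2 units (adjusted p = 0.044, edgeR's quasi-likelihood test of the difference). Its log2 fold change was -0.60 within IL-12 and -0.11 within IL-2, and all 3 IL-12 80%TCM libraries lay below all IL-12 libraries. The change of Noc2l differed by -0.44 log2 units (adjusted p = 0.036), with -0.37 within IL-12 and 0.07 within IL-2, and again all 3 IL-12 80%TCM libraries were below the IL-12 libraries. With replicate 3 of both IL-2 groups left out the differences were -0.45 for Fbl and -0.35 for Noc2l, and both passed the test. Both calls were lost in each of 9 fits that left out 1 library (replicate 1 of IL-2, replicate 1 or 2 of IL-2 80%TCM, or any of the 6 IL-12 libraries) and by limma without a filter, and that of Fbl was lost with DESeq2 size factors. Dixon's outlier test was not run, since each group holds 3 libraries.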

How the results depend on the processing

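Of the values of called members and Myc, only 1 changed sign: Myc with TCM within IL-2, at 0.021 without replicate 1 of IL-2 80%TCM, the highest value with a library left out, the lowest being -0.18. For TCM within IL-2, the members that fell numbered 9 with no filter, 6 by DESeq2, 1 by limma without a filter, 0 with only the groups compared, 7 with the replicate block in all groups, 13 with the replicate block in the IL-2 groups, 1 at a threshold of 0.01, 22 without both replicate 3 libraries and 1 to 20 with a library left out. For TCM within IL-12, 17 fell at 0.01, 20 to 36 fell with a library left out, and 1 rose (Myc) with only the groups compared. For IL-12 over IL-2 without TCM, 21 to 31 were higher and 0 to 1 lower with a library left out. There the main fit called 0 lower, while 2 were lower with the replicate block in the IL-2 groups and 3 without replicate 3 of both. Polr1b was also called in this comparison with the replicate block in all groups. With TCM, 5 were higher with upper-quartile scaling, 5 with library totals and 5 at 0.01; 6 were lower with upper-quartile scaling, 9 with library totals, 6 with a mean of 5 CPM, 7 with the replicate block in the IL-2 groups and 8 without replicate 3 of both; leaving out a library gave 5 to 12 higher and 2 to 6 lower. For the difference of changes, 1 was lower with DESeq2 size factors, 10 with no filter, 6 by DESeq2, 0 by limma without a filter, 18 with the replicate block in the IL-2 groups, 14 without replicate 3 of both (1 higher, Myc), 0 at 0.01 and 0 to 8 with a library left out. Causes were not tested. The replicate block changed no other count by over 1.5 times. The lowest level of a member in a library was 21.5 CPM (Nop16).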

Other observations

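Small nucleolar RNAs lie within the genes of 9 members, Odc1, Ncl, Nop56, Nop58, Dkc1, Wdr43, Tsr1, Gnl3 and Ppan, with 24 annotated in all. Of these 24, 13 are listed at 0 counts in every library, the other 11 had at most 1.36 CPM in a library, and 4 passed the filter on low counts.

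Wdr12 and Npm1 differed in replicate 3 of the IL-2 groups, where Npm1, like Myc, was highest in both. Replicate 3 of IL-2 80%TCM held 38.5 CPM of Wdr12, with 71.1 and 73.9 CPM in replicates 1 and 2. This was the largest shift of a member in that library (-0.91 log2 units from the mean of its group mates). The same library held 1338 CPM of Npm1, with 1138 and 1116 CPM in its group mates, and in the IL-2 group Npm1 stood at 1402 CPM in replicate 3 and 1309 and 1291 CPM in the others.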
